A study of Mus musculus with 6 samples.

Results

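The genes described here place or remove methyl groups on histones, or belong to the Polycomb complexes that read and spread such marks. They were 41 genes chosen by symbol from a fixed list, out of 33924 genes in the deposited expression table: 12 Polycomb genes, 17 genes of other methylation writers and 12 genes of methylation erasers. Poly(A) RNA was sequenced from RPE/choroid, the retinal pigment epithelium together with the vascular layer beneath it, of C57BL/6J mice that the labels give as male. The labels name 3 young mice of 1 to 2 months and 3 aged mice, for which the sample names say 20 to 24 months while a separate age entry says 22 to 24. They mention no mutant allele and no treatment, and each sample held both eyes of a mouse. The study's methods describe mice of both sexes and a slightly older young group, a difference that the sources used here do not settle.

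The values below are the authors' mean normalized count over all 6 libraries, 1 value per gene. Values per library were not analysed here, so no SD, n or test accompanies a level, and no difference between young and aged mice is given for any gene. All ratios between genes are therefore descriptions without an error.

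Histone lysine methylation is written by SET domain enzymes and, for lysine 79 of histone H3, by a DOT1 enzyme, and it is removed by the amine oxidase LSD1 family and the Jumonji demethylases. Polycomb repressive complex 2 (PRC2) methylates lysine 27 of histone H3, and Polycomb repressive complex 1 (PRC1) ubiquitinates histone H2A and binds the lysine 27 mark through its Cbx subunits. Together they keep developmental genes silent in differentiated tissue. The RPE is a postmitotic epithelium, in which chromatin marks are maintained largely without cell division.

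All 41 genes had a mean of at least 10, the minimum set for a gene to be described, and all 41 also had at least 50. Of all 33924 genes in the table, 18479 had a mean of at least 10. The 41 genes held 0.164% of the summed mean normalized counts. As deposited, their levels ran from 51.9 for Setd1b to 4520 for Bmi1, an 87.1-fold range, with a median of 1397 against 668 over the 18479 genes with a mean of at least 10. Of the 41, 29 lay above that median of all genes. Long transcripts can collect more reads, so genes were also compared per kilobase of their longest annotated transcript, and on that scale 24 of 41 lay above the median of all genes, which was 213 per kilobase. That count was 21 of 41 against protein-coding genes and 18 of 41, a minority, against genes with a mean of at least 50. The methods describe TPM values, which are corrected for length, turned into normalized counts. The lowest means, however, fell on 6 steps shared by 576 genes, as single counts not divided by length would. Whether the deposited values of the other genes carry a correction for length was not tested. Over all genes the median level rose from 340 in the shortest of 4 equal bins of transcript length to 993 in the longest, whose median lengths were 1068 and 5957 bases. The Spearman correlation of level with transcript length over all genes was 0.19 for the longest transcript and -0.05 for the median transcript, and among the 41 genes it was -0.0092 for the longest. Both scales are given for this reason. In the annotation used here, 24 of the 41 genes were overlapped by a gene on the opposite strand. Another gene on the same strand overlapped 9 of the 41. Overlaps were counted only for the 41 genes, so it is not known how these shares compare with those of all genes. That annotation is not the Ensembl release the authors mapped to, so the gene models may differ. Whether the quantification used the strand is not given in the sources used here. Because the tissue was sequenced in bulk, a low level cannot tell few expressing cells from little RNA per cell.

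**Figure D1:**
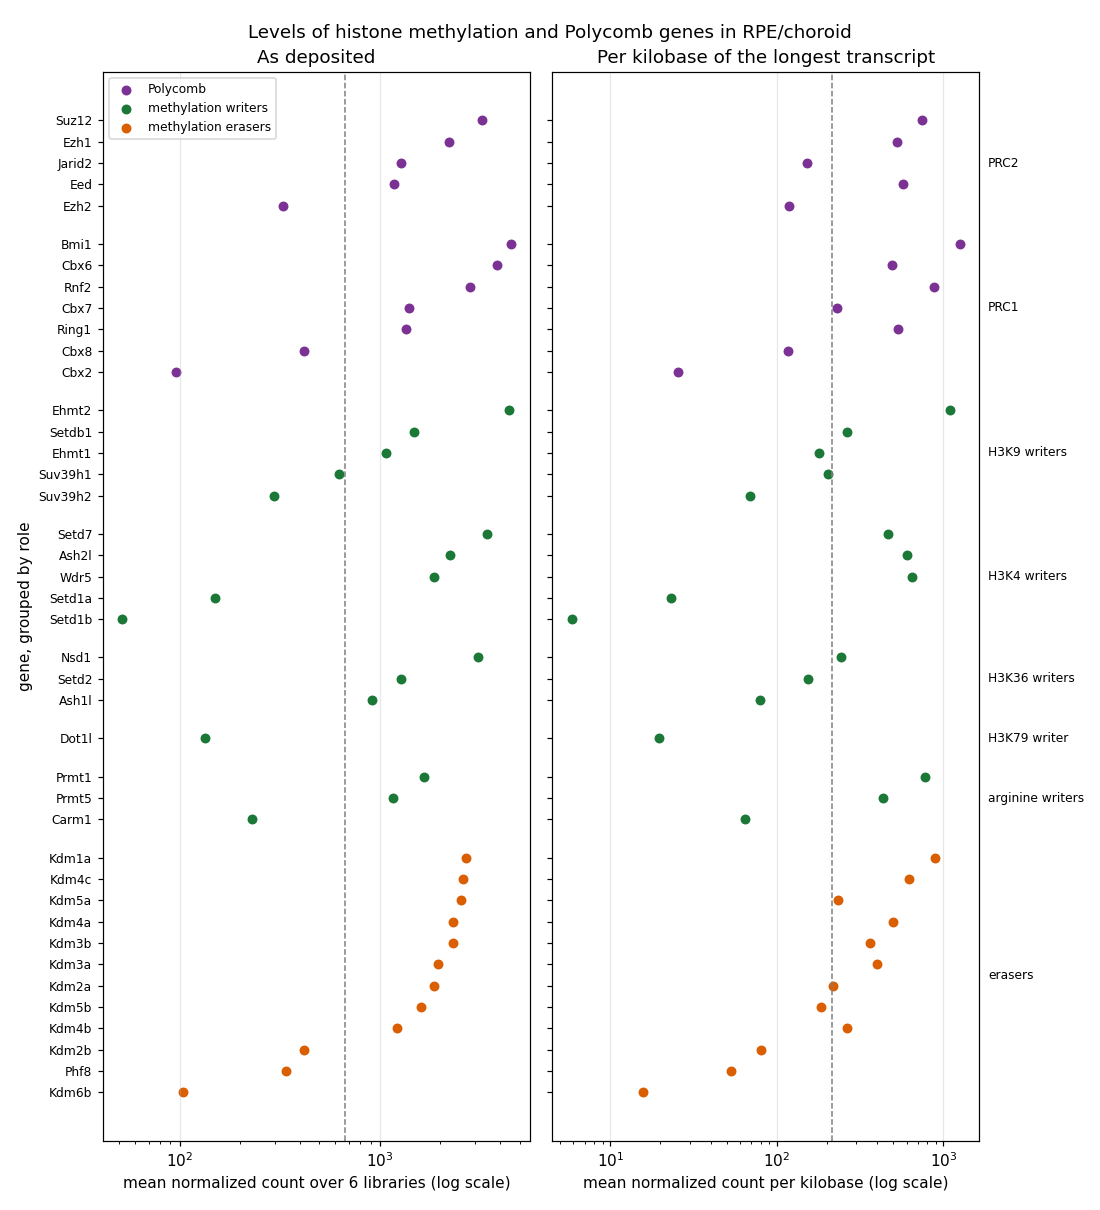
Mean normalized count over 6 libraries of the 41 genes, as deposited (left) and per kilobase of the longest transcript (right), both on log axes, with genes grouped by role and colored by class. Each point is 1 gene with no error available, and the dashed line is the median of all genes with a mean of at least 10 (668 on the left, 213 on the right). Setd1b is the lowest and Bmi1 the highest on both scales.

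The tissue label was checked against markers of the cell types the dissection could hold. Of 6 RPE markers, 5 ranked among the highest genes of the table, with mean normalized counts from 50958 for Lrat to 397586 for Ttr, whereas Best1, a chloride channel of the RPE, stood at only 81.8. Markers of rods, muscle, red cells, macrophages and fibroblasts were abundant too, among them Acta1 at 40522 and Lyz2 at 121895. The 4 cell division markers ranged from 46.9 for Ccnb1 to 477 for Cdk1, all below the median of all genes. The levels below belong to this mixture, and the part of each cell type in them was not tested.

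Among the 5 PRC2 members, the scaffold subunit Suz12 had the highest level. Its mean normalized count was 3243, or 742 per kilobase. Ezh1, the catalytic subunit typical of nondividing cells, was at 2217 (527 per kilobase). Ezh2, its counterpart in dividing cells, was at 329 (118 per kilobase). Ezh1 thus exceeded Ezh2 6.74-fold as deposited and 4.46-fold per kilobase, and it was the higher gene on every scale used. Ezh1 lies at chr11:101191115-101226463 and Ezh2 at chr6:47530139-47595341 (GRCm38, both on the minus strand). Eed, which binds the lysine 27 mark and stimulates the enzyme, was at 1185, which came to 573 per kilobase. Jarid2, an accessory subunit that helps direct PRC2 to chromatin, was at 1270, but its long transcript of 8353 bases put it at 152 per kilobase, below the median of all genes.

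The sums of the subunits were compared after their levels had been seen. Per kilobase, Ezh1 and Ezh2 summed to 645, 0.870 times Suz12 and 1.13 times Eed. As deposited, their sum was 0.785 times Suz12 and 2.15 times Eed, so the ratio to Eed depended on the scale. Other PRC2 genes spanned a wider range. The histone binding subunits Rbbp4 and Rbbp7, which also serve in other complexes, were at 7142 and 8182, while the accessory subunit Phf19 was at 104. Of the 6 other PRC2 genes listed, 5 lay above the median of all genes on both scales.

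In PRC1, Bmi1, the Pcgf subunit that helps activate the ubiquitin ligase, was the highest of the 41 genes on both scales, with a mean normalized count of 4520 and 1258 per kilobase. Its paralog Pcgf2, which takes the same place in the complex, was at 228, 13.7-fold lower per kilobase. Bmi1 lies at chr2:18677018-18686629 (GRCm38, plus strand), and 81.5% of the 50-base words in its longest transcript occurred in no other annotated gene. Of the 655 shared words, 650 lay in the processed pseudogene Gm5946, so reads there could be assigned to either if the authors' annotation also held Gm5946. The ligase Rnf2 was at 2823 and its paralog Ring1 at 1354, a 2.08-fold difference as deposited and 1.66-fold per kilobase.

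The Cbx subunits, which read methylated lysine 27, differed more among themselves than the ligases did. Cbx6 led them with a mean normalized count of 3831, followed by Cbx7 at 1397, Cbx8 at 420 and Cbx2 at 96.5. Per kilobase the same order held, from 488 for Cbx6 to 25.3 for Cbx2. Cbx6 made up 66.7% of the summed level of the 4 as deposited and 56.7% per kilobase, a share computed after their levels had been seen. Cbx6 overlaps Npcd, a protein-coding gene annotated on the same strand, and the part of its level that comes from reads of Npcd was not tested. Among the 12 other PRC1 genes listed, 6 lay above the median of all genes as deposited and 5 per kilobase, and the order changed with the scale. The Polyhomeotic subunits Phc3 and Phc2, which link complexes to each other, were the highest as deposited at 2699 and 2304, and Yaf2 was the highest per kilobase at 944, ahead of Phc2 at 583. Bap1, which removes the ubiquitin that PRC1 adds, was at 3332.

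Among writers of lysine 9 methylation, the mark of silent chromatin, Ehmt2 (G9a) stood apart. Its mean normalized count of 4412, or 1096 per kilobase, was the second highest of the 41 genes on both scales. Its partner Ehmt1 (GLP), with which it forms a heterodimer, was at 1072, or 180 per kilobase. Ehmt2 exceeded Ehmt1 4.11-fold as deposited and 6.08-fold per kilobase, although the proteins work as a pair. Setdb1, which silences retroelements, was at 1479. Suv39h1 and Suv39h2, the enzymes of pericentric heterochromatin, were at 627 and 297, and Suv39h1 was the higher on every scale. Readers of the mark, the HP1 proteins Cbx1, Cbx3 and Cbx5, were at 1328, 1849 and 605 per kilobase, so that Ehmt2 was the only lysine 9 writer above any of them.

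The lysine 4 writers held the widest range of any group, 66.4-fold as deposited. Setd7, a monomethyltransferase that also acts on other proteins, was at 3447. The shared core subunits Ash2l and Wdr5, needed by all SET1/MLL complexes, were at 2241 and 1872. The catalytic subunits Setd1a and Setd1b, which write most of the promoter mark, were at 150 and 51.9. Per kilobase, Setd1b was at 5.86 and above only 2.98% of genes. Setd1a lies at chr7:127776670-127800122 (GRCm38, plus strand), where only 46.0% of the 50-base words in its longest transcript were its own, and all the shared words lay in Gm49388, an overlapping gene on the same strand. Its reads could have been divided between both gene models if the authors' annotation also held Gm49388, which was not checked, so its level is uncertain. Setd1b, at chr5:123142193-123168629 (plus strand), had 99.8% of its words to itself and was lower still. Among the other lysine 4 catalytic subunits, Kmt2a was at 1068, Kmt2b at 545, Kmt2c at 2024 and Kmt2e, a family member with little such activity, at 380. Per kilobase these genes were at 64.8, 64.3, 135 and 52.0, all below the median of all genes. Kmt2d was not matched to a symbol of the table.

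The lysine 36 writers have some of the longest transcripts, and their rank depended on the scale. Nsd1, a dimethyltransferase, was at 3107, Setd2, which completes the mark while travelling with RNA polymerase, at 1281 and Ash1l at 920. All 3 exceeded the median of all genes as deposited, but only Nsd1, at 243 per kilobase, did so per kilobase. Dot1l, the lysine 79 writer, was at 134, or 19.7 per kilobase. Of the arginine methyltransferases, Prmt1, which makes most asymmetric dimethylarginine, was at 1658 (772 per kilobase), Prmt5, the main symmetric enzyme, at 1160 (431 per kilobase) and Carm1, a coactivator that methylates arginines of histone H3, at 231 (64.5 per kilobase).

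The erasers were the most even class as deposited, with a 25.8-fold range. Per kilobase their range was 56.7-fold, and the Polycomb genes were the most even class at 49.6-fold. Of the 12 erasers, 9 lay between 1214 and 2687 and above the median of all genes as deposited. Of these 9, all but Kdm5b were also above it per kilobase. Kdm1a (LSD1), an amine oxidase that removes lysine 4 methylation, led them with a mean normalized count of 2687 and 887 per kilobase. The lysine 9 and 36 demethylases Kdm4c, Kdm4a and Kdm4b were at 2602, 2330 and 1214. The lysine 9 demethylases Kdm3a and Kdm3b were at 1944 and 2319 as deposited, with Kdm3b higher. Kdm3a was the higher per kilobase of the longest transcript (401 against 364) and of the median transcript (2228 against 774). The lysine 4 demethylases Kdm5a and Kdm5b were at 2538 and 1607.

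Kdm2b, Phf8 and Kdm6b were the 3 erasers below the median of all genes on both scales. Kdm2a, a lysine 36 demethylase that binds unmethylated CpG, was at 1868, and its paralog Kdm2b, which recruits a form of PRC1 to CpG islands, was at 418. Only 87.5% of the words in the longest Kdm2b transcript were its own, most of the rest lying in a processed pseudogene. Phf8, a lysine 9 demethylase on the X chromosome, was at 339. Kdm6b, which removes lysine 27 methylation and is known as a gene induced by stimuli, was at 104, while Kdm6a, the other such enzyme, was at 1249. Kdm6b thus stood at 0.0834 times the level of Kdm6a as deposited and 0.0744 times per kilobase, a ratio taken after the levels had been seen.

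**Figure D2:**
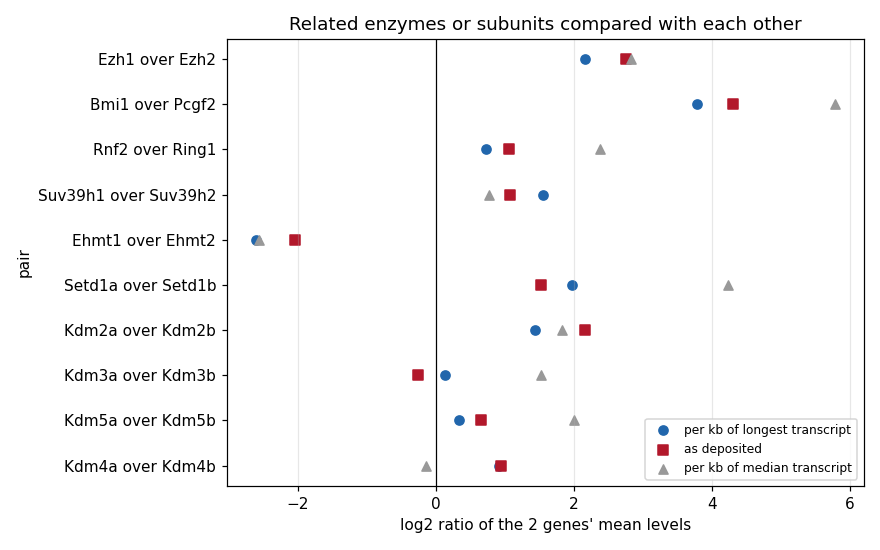
Log2 ratio of the mean levels of 10 pairs of related genes, with 1 point each for values as deposited, per kilobase of the longest transcript and per kilobase of the median transcript. Points to the right of 0 mean that the first gene is higher. Bmi1 over Pcgf2 lies farthest to the right on each scale and Ehmt1 over Ehmt2 is the only pair to the left on all 3, while Kdm3a over Kdm3b and Kdm4a over Kdm4b change side.

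Across the 3 classes, the order of medians depended on length. As deposited, the median was 1906 for erasers, 1376 for Polycomb genes and 1160 for writers, whereas per kilobase it was 507 for Polycomb genes, 249 for erasers and 201 for writers. The Polycomb genes had the shortest transcripts, with a median of 3701 bases against 5652 for writers and 5770 for erasers. Of the 58 other genes of these pathways on the list, 57 were found in the table, all with a mean of at least 10. Of these 57, 41 lay above the median of all genes as deposited and 30 per kilobase.

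GC content was examined after the levels had been seen. The 6 genes with the lowest levels as deposited were Setd1b, Cbx2, Kdm6b, Dot1l, Setd1a and Carm1. All 6 lay in the most GC-rich of 5 equal bins of genes, from 55.4% GC upward. Their levels were at most 231, a bound at or under which 34.1% of all genes in that bin lay, against 29.0% in the bin with the least GC. The number 6 was set after the levels had been seen, and the next lowest genes did not share the feature: Suv39h2 had 43.0% GC, Ezh2 44.4%, Phf8 49.3% and Kdm2b 52.6%, each in a different one of the other 4 bins. The other 4 members in the GC-rich bin were Ehmt2, Cbx7, Ring1 and Kdm4b, from 1214 upward, so the GC-rich members fell on both sides of the median. Per kilobase, Phf8 at 53.2 stood below Carm1 at 64.5, so the 6 lowest genes no longer all lay in the GC-rich bin. Over all 41 genes, level as deposited and GC content had a Spearman correlation of -0.41. Over the 17944 genes matched to the annotation it was -0.07. Per kilobase, these correlations were -0.30 and 0.0060. These are correlations across genes of 1 pooled value, and genes are not independent replicates. Whether GC content affected the reads obtained from these transcripts was not tested.

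**Figure D3:**
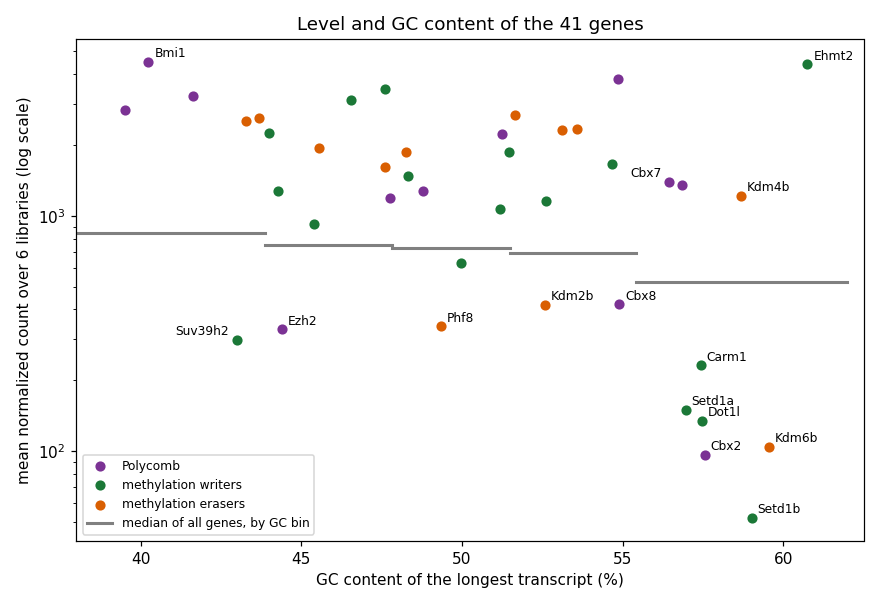
Mean normalized count over 6 libraries (log axis) against the GC content in percent of the longest transcript for the 41 genes, colored by class, with low members and a few high ones named. Grey lines are the median of all genes in each of 5 equal bins of GC content. The 6 lowest genes sit at the right, below a grey line that falls only from 841 to 524.

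Most of the promoters found for the genes had the CpG ratio of a CpG island, the kind of promoter that PRC1 and PRC2 themselves can occupy. None was found for Setd1b, Cbx2 and Kdm6b, the lowest genes as deposited, and some genes had several. RefSeq promoters, taken from 250 bases before to 50 after a start, were found for 30 of the 41 genes, 39 promoters in all. Their median was 28 CpG dinucleotides, against 7 over all 32851 promoters and 18 over promoters of genes with a mean of at least 10. A ratio of observed to expected CpG above 0.6, a usual mark of a CpG island, was found in 94.9% of the members' promoters, in 60.5% of those of genes with a mean of at least 10 and in 35.8% of all promoters. The GC box GGGCGG was present on either strand in 71.8% of the members' promoters, in 57.4% of those of genes with a mean of at least 10 and in 35.7% of all. For the CCAAT box CCAAT these shares were 43.6%, 37.3% and 37.4%, and for the TATA box TATAAA 2.56%, 8.13% and 13.6%. Motif letters can overlap each other and CpG, and a match is not a bound site. To show how different the starts of a high and a low member are, the 250 bases before the start of Bmi1 (chr2:18676768-18677017) and Dot1l (chr10:80754953-80755202) are printed from RefSeq GRCm38.p6, both on the plus strand, with each CpG in capitals. They are the highest and the lowest of the genes that have a single listed promoter.
Bmi1: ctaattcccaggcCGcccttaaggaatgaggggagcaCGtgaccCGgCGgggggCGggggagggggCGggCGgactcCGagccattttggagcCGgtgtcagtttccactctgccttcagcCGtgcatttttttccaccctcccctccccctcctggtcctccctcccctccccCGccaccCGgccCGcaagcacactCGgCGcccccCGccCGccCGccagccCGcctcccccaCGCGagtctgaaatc
Dot1l: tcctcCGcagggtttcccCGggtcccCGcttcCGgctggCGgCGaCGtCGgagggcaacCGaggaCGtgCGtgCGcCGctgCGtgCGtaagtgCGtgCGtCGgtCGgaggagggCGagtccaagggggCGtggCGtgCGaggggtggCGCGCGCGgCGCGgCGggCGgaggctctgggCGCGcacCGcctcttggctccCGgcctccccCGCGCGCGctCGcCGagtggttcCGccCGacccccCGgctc
The Bmi1 stretch held 21 CpG at 70.4% GC and the Dot1l stretch 44 at 78.4% GC, although Bmi1 had the higher level. Over the 30 genes with a promoter, the CpG count and the level had a Spearman correlation of -0.22, across genes and without a test.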

How the data were processed

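Poly(A) RNA of RPE/choroid from 3 young and 3 aged mice was used. According to the labels, ribosomal RNA was removed and stranded total RNA libraries were prepared, although the molecule is labelled as poly(A) RNA. The authors trimmed reads with BBDuk, mapped them to GRCm38 transcripts with STAR, quantified them with Sailfish, scaled them by total count and used DESeq2. The deposited value used here is the mean normalized signal per gene over all 6 libraries. The other columns hold the authors' own comparison of age groups (a fold change, its error, a statistic and p-values) and were not used, so no age comparison was made. Depth per library is unknown. The lowest means fell on 6 steps, as single counts in single libraries would, and these steps implied scaling factors from 0.959 to 1.06.

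Symbols were matched to GENCODE M21 (GRCm38), which gave lengths, GC content and coordinates for 97.1% of the genes with a mean of at least 10. The authors mapped to an Ensembl release instead, and its gene models were not compared with these. Calculations used Python 3.11.15 with pandas 2.3.3. Only the per-kilobase and percentile steps were run on simulated data. The steps for symbol matching, GC content, shared sequence and promoters were not. All 41 members, companion genes, pairs and markers were named by fixed lists, chosen with earlier results of these data known. Features of GC content, shared sequence, promoters and sums of subunits were added after the values had been seen.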

Additional observations from a re-analysis of the deposited data

How the results depend on the processing

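All 41 genes also passed a minimum of 50, and dropping the minimum could not lower their number. With the median transcript length in place of the longest, the class medians per kilobase became 1929 for Polycomb genes, 694 for writers and 715 for erasers. Without division by length they were 1376, 1160 and 1906. The share of the summed counts held by the members became 0.206% without the 100 highest genes and 0.168% without mitochondrial genes. The log2 ratio of Kdm3a over Kdm3b was 0.14 per kilobase, -0.25 as deposited and 1.53 with the median transcript length, and that of Kdm4a over Kdm4b was 0.91 per kilobase and -0.14 with the median transcript length. The first gene was the higher in 9 of 10 pairs per kilobase and in 8 under each of the other scales. Genes above the median per kilobase numbered 24, and 28 with the median transcript length, 18 against genes with at least 50 and 21 against protein-coding genes. As deposited they numbered 29, and 36 against all genes above 0 and 28 against genes with at least 50. No paired analysis was possible because no values per library were used, and leaving out replicates was not run for the same reason. No depth limit can be given for a mean without counts.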
